A study of Homo sapiens with 6 samples.

Results

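Synaptic vesicle and active zone genes encode the proteins that store transmitter in vesicles, hold vesicles at the release site, sense calcium and recover membrane after release. The group described here has 54 members, chosen by gene symbol from the deposited table of 36458 symbols, with SNARE and RAB genes left out; the rule is a list of symbols and sets no threshold on a measured value. Of the 54, 53 had a row in the table and 43 carried enough reads to be tested; CPLX3 was not analysed here. DMS114 is an established line of human small cell lung cancer. Cells of 1 group, with 3 libraries, received 2.5 mM β-alanine for 48 h, and cells of the control group, also with 3, received the same volume of vehicle. β-alanine is a non-proteinogenic amino acid. Polyadenylated RNA was sequenced, and no genetic change is named in either group, so the treatment is the only labelled difference. The labels do not say whether the 3 libraries of a group came from separate cultures, so p-values measure the spread between these libraries, which may be technical.

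Transmitter is loaded into vesicles by vesicular transporters and released when a vesicle, docked and primed at the active zone, fuses after synaptotagmins bind calcium. Complexins bind the assembled SNARE complex, UNC13 proteins prime vesicles, and RIM, Bassoon, Piccolo, ERC and liprin-α proteins build the scaffold at the release site. Small cell lung cancer is a neuroendocrine cancer, and neuroendocrine cells secrete hormones and peptides from dense-core vesicles with related machinery; synaptophysin is widely used as a diagnostic marker for such tumours.

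With β-alanine, libraries 1, 2 and 3 held 14433801, 27324339 and 32909568 counts, and the controls, numbered the same way, held 18814876, 22072654 and 19613283. All values below are given in that library order, as CPM, reads counted for a gene relative to the library's size after scaling by edgeR's TMM factors, and fold changes are β-alanine over control on the log2 scale with their standard error (SE). β-alanine library 1, the shallowest, stood apart from the other two of its group on the first principal component, at -9.13 against -23.52 and -23.61, with the controls between 16.71 and 20.02. Over all 17331 genes tested, 2441 rose and 2389 fell with edgeR's quasi-likelihood test at an adjusted p under 0.05, a median log2 fold change of -0.00 and a median size of 0.15. Of 12 neuroendocrine markers, 5 were under 1 CPM in every library, among them the transcription factor INSM1, while CHGA, CHGB, SCG3, UCHL1, ENO2 and DLL3 were above it.

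CPLX2, which encodes the SNARE-binding complexin-2, SYN1, which encodes the vesicle-tethering phosphoprotein synapsin I, and SYP, which encodes the vesicle membrane protein synaptophysin, had the largest rises among the members. Their fitted levels were 2.13, 1.85 and 1.42 times those of the controls. AMPH, which encodes the endocytic adaptor amphiphysin, fell to 0.759 of its control level, and SYT2, SYT4 and SYT7, DNM1 and UNC13B fell by less. In all, 11 members rose and 6 fell of the 43 tested. The 17 called make 39.5% of the members tested, where 27.9% of all genes tested were called, 14.1% higher and 13.8% lower. Groups of libraries did not overlap for 23 of the 43 members (13 above and 10 below their controls), or 53.5%, against 39.1% of all genes tested. The median log2 fold change of the members was 0.05 and the median size 0.20. The summed level of all members was 1526, 1529 and 1541 CPM with β-alanine and 1419, 1427 and 1444 CPM in the controls, so the sum was higher in each β-alanine library than in any control. In CPM the largest rises were those of SYT11, at 304 against 249 CPM on average, and SYP, at 86.3 against 61.0 CPM. Of the 43 members tested, 23 had a fold change above 0 on the log2 scale and 20 below it. In bulk RNA, fewer cells that carry a transcript and less of it per cell cannot be told apart.

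**Figure D1:**
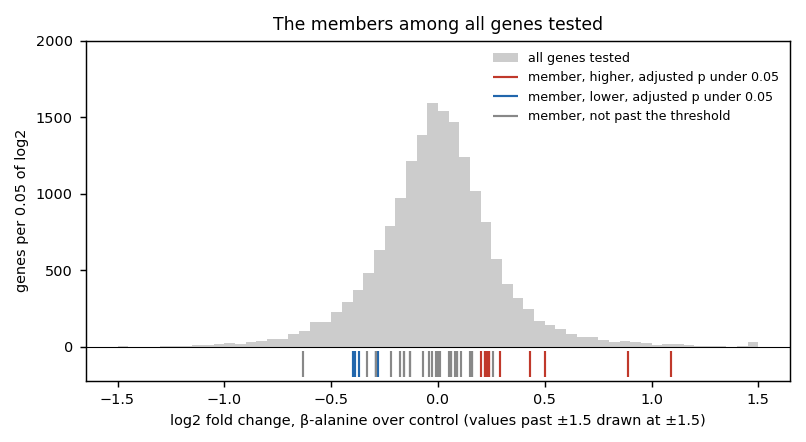
The grey histogram gives the log2 fold changes (β-alanine over control) of all genes tested in bins of 0.05, with genes past ±1.5 drawn at the edges, and each tick below the axis is 1 of the 43 members, coloured by call. The 11 members that rose lie from 0.20 to 1.09 and the 6 that fell from -0.40 to -0.28, on either side of the peak of the histogram.

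The 250 bases before the annotated start are shown for the 3 members with the largest rises and for AMPH, the called member with the largest fall, to set their promoters side by side. They are RefSeq sequences of GRCh38.p14, written 5′ to 3′ on the gene's own strand: CPLX2 at chr5:175796283-175796532 (plus), SYN1 at chrX:47619858-47620107 (minus), SYP at chrX:49200194-49200443 (minus) and AMPH at chr7:38631374-38631623 (minus). Capitals mark matches, on either strand, to any of the 6 motifs searched.
CPLX2: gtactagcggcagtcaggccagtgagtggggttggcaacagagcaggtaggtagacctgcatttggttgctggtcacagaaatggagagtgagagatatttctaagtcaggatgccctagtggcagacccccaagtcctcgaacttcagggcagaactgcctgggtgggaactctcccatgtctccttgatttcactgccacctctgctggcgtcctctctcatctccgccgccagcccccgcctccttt
SYN1: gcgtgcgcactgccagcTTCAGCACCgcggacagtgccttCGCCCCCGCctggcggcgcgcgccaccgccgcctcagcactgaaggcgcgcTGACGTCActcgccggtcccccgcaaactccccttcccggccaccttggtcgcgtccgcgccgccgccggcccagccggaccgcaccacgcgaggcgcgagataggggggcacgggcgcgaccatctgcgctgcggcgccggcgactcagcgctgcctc
SYP: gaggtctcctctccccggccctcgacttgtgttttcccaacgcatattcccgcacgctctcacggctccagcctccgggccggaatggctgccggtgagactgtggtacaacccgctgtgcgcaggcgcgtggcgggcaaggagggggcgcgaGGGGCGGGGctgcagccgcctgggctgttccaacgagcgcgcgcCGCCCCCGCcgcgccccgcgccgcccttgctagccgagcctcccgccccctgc
AMPH: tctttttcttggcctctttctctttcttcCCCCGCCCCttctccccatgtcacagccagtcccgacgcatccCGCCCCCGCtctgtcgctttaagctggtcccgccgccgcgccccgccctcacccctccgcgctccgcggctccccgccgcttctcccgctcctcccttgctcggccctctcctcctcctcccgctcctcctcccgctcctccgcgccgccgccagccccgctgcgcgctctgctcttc
The SYN1 stretch held TTCAGCACC, the left arm of the repressor element 1 bound by REST, whose last base lay 225 bases before the start; TGACGTCA, the palindromic cAMP response element, 152 bases before it; and GCGGGGGCG, the early growth response (EGR) motif, on the opposite strand 202 bases before it. SYP held the EGR motif 45 bases and GGGGCGGGG, a GC box, 89 bases before its start, and AMPH held them 170 and 213 bases before it. CPLX2 held none of the 6 and had a GC content of 56.8%, against 76.8% in SYN1, 74% in SYP and 71.6% in AMPH. For repressor element 1 only the left arm was searched. Whether the SYN1 stretch also holds the rest of the element was therefore not scored.

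Among all members, 41 had an entry in the RefSeq promoter table, with 61 annotated starts, and these included 10 of the 11 that rose and 5 of the 6 that fell. The left arm TTCAGCACC was in 1 of the 61 (SYN1) and in 0.288% of all 35116 promoters in that table. TGACGTCA was in 2 of the 61 (SYN1 and SLC18A2) and in 1.65% of all promoters. GCGGGGGCG was in 11 of the 61, or 18%, and in 4.72% of all, and the members that held it included DNM3, SYN1 and SYP, which rose, and AMPH and SYT2, which fell. GGGGCGGGG was in 24 of the 61, or 39.3%, and in 15.1% of all, in 5 members that rose and 4 that fell. The NR4A motif AAAGGTCA was in 0 of the 61 and in 1.05% of all promoters. The AP-1 motif TGANTCA was in 2 of the 61 (ERC2 and RIMS1) and in 6.57% of all promoters. Both strands were searched, the EGR motif and the GC box are both runs of G with C and can share bases, and a match is a description of letters, not a bound site. SYN3, SYNGR3, SYT7, SYT12, SYT13, SYT17, DOC2A, DOC2B, CPLX1, CADPS2, RIMS2, DNAJC5B and SLC18A1 had no entry.

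Of 9 vesicle membrane and matrix proteins tested, SYN1, SYP, SYNGR2 and SYPL1 rose and none fell (44.4%, against 27.9% of all genes). SYN1 lay at 16.0, 18.5 and 18.3 CPM with β-alanine and at 9.73, 8.64 and 10.5 CPM in the controls. The lowest β-alanine library was above the highest control, and the log2 fold change was 0.89 ± 0.09 (SE, n = 3 per group, adjusted p = 7.64e-07). SYP, an abundant membrane protein of synaptic vesicles, was at 81.5, 87.8 and 89.6 CPM against 56.2, 62.9 and 64.0 CPM. It rose by 0.50 ± 0.05 (adjusted p = 8.68e-07), with no overlap between groups. SYNGR2, the broadly expressed member of the synaptogyrin family, was at 73.2, 78.0 and 74.2 CPM against 64.8, 65.4 and 60.3 CPM and rose by 0.24 ± 0.05 (adjusted p = 0.000817). SYPL1, a synaptophysin relative found in many tissues, was at 78.5, 82.8 and 77.4 CPM against 70.2, 68.3 and 68.7 CPM and rose by 0.20 ± 0.05 (adjusted p = 0.00236). Both were higher in every β-alanine library than in any control.

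The other synapsins and synaptogyrins did not pass the test. SYN2 was at 14.7, 13.0 and 10.9 CPM with β-alanine and 13.8, 15.3 and 13.0 CPM in the controls, and the groups overlapped (log2 fold change -0.16 ± 0.10, adjusted p = 0.269). Without β-alanine library 1 the value for SYN2 was -0.25 and past the threshold (adjusted p = 0.0351, range over 16 alternatives 0.0351 to 0.832). SYN3 was at 9.05, 9.08 and 9.14 CPM against 10.6, 10.1 and 10.3 CPM; each β-alanine library lay below each control, yet the value of -0.18 ± 0.10 did not pass (adjusted p = 0.159). SYNGR1, the neuronal synaptogyrin, was at 47.8, 44.6 and 47.5 CPM against 43.0, 45.1 and 46.1 CPM, with a 95% confidence interval of its log2 fold change from -0.06 to 0.17. SYNGR3, which binds the dopamine transporter, was at 12.1, 11.0 and 10.7 CPM against 13.4, 12.8 and 11.5 CPM (interval -0.36 to 0.03). SV2A, the target of the antiepileptic drug levetiracetam, was at 138, 139 and 139 CPM against 143, 141 and 142 CPM. Its groups did not overlap, but the difference was smaller than its error (log2 fold change -0.03 ± 0.04, interval -0.11 to 0.05, adjusted p = 0.603). SYN1 shares 7.77% of its exon bases with AL009172.2 on the same strand and a few with ARAF on the other, SYP 1.3% with SYP-AS1 and SYN2 2.99% with TIMP4; since strand-aware counting is not stated, their counts are uncertain to that extent, and SYPL1 has annotated pseudogene copies that could share reads with it.

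**Figure D2:**
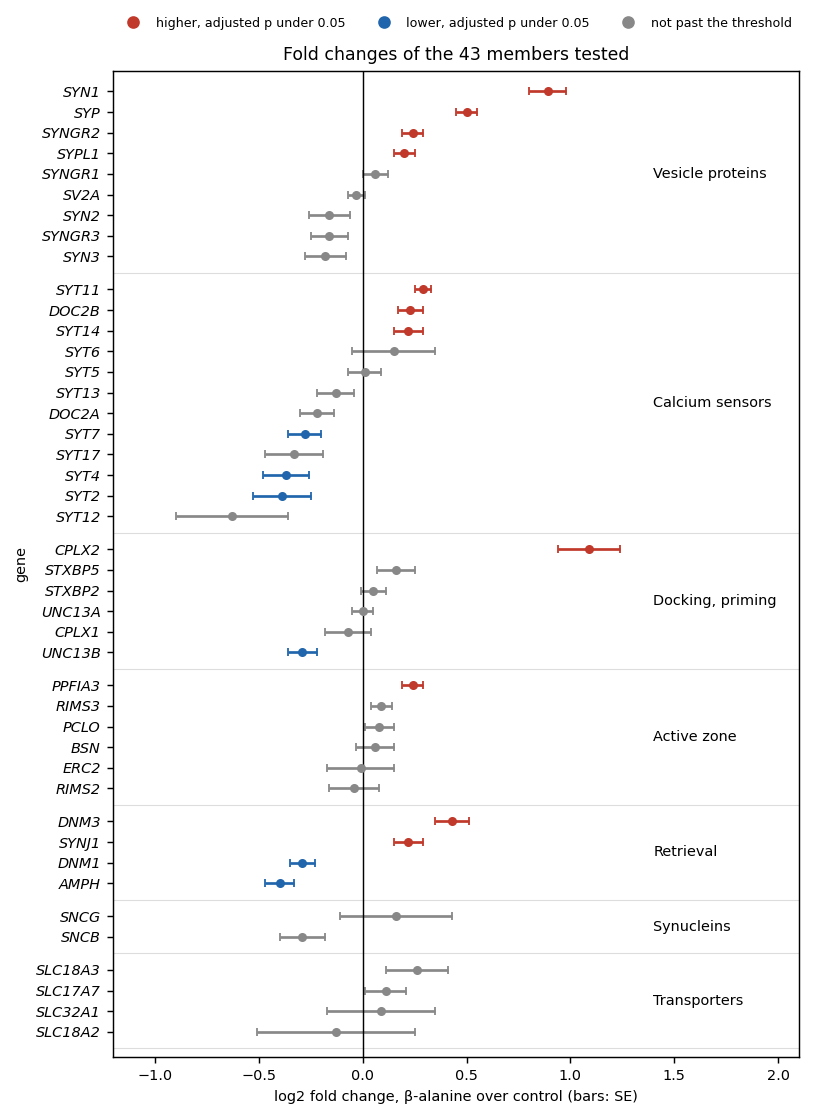
Points are log2 fold changes (β-alanine over control) of the 43 members tested and bars are SE, arranged by role and, within a role, from highest to lowest; red and blue mark an adjusted p under 0.05. The 4 vesicle proteins called lie to the right of 0. The called synaptotagmin and DOC2 genes, labelled calcium sensors though not all are, and the called retrieval proteins lie on both sides.

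The 12 synaptotagmin and DOC2 genes tested, not all of which encode calcium sensors, split, with 3 that rose and 3 that fell. These 6 make 50%, against 27.9% of all genes. SYT11, which lacks the calcium-binding residues of other synaptotagmins, was at 284, 318 and 310 CPM with β-alanine and 251, 247 and 251 CPM in the controls. It rose by 0.29 ± 0.04 (adjusted p = 2.58e-05), with no overlap. DOC2B, a cytosolic double C2-domain sensor linked to spontaneous release and insulin secretion, was at 53.3, 53.2 and 57.3 CPM against 50.5, 44.2 and 46.0 CPM and rose by 0.23 ± 0.06 (adjusted p = 0.00529). SYT14 was at 40.2, 44.2 and 45.8 CPM against 36.5, 34.7 and 41.2 CPM; it rose by 0.22 ± 0.07 (adjusted p = 0.015), although β-alanine library 1 lay below control library 3. These genes were higher on average by 22% (SYT11), 16.9% (DOC2B) and 16.8% (SYT14). SYT14 has an annotated pseudogene that could share reads with it.

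SYT2, a fast sensor of synchronous release, was at 4.59, 3.98 and 5.21 CPM with β-alanine and 6.22, 6.37 and 5.61 CPM in the controls, and fell by 0.39 ± 0.14 on the log2 scale (adjusted p = 0.0332). SYT4, a synaptotagmin found on dense-core vesicles, was at 8.21, 7.37 and 6.71 CPM against 9.41, 9.55 and 9.43 CPM and fell by 0.37 ± 0.11 (adjusted p = 0.012). SYT7, a high-affinity sensor of asynchronous release and of lysosome exocytosis, was at 29.9, 24.4 and 23.2 CPM against 30.7, 31.5 and 30.0 CPM and fell by 0.28 ± 0.08 (adjusted p = 0.0113). For all 3 the highest β-alanine library was below the lowest control, for SYT7 by only 29.9 against 30.0 CPM. SYT2 shares 27.2% of its exon bases with PPP1R12B on the opposite strand, so its change cannot be separated from that gene's reads, and SYT7 shares 0.823% with AP003559.1.

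Several of these calls depended on 1 library. SYT2 missed the threshold when β-alanine library 2 was left out (adjusted p = 0.203), without control library 1 (0.0896) or control library 2 (0.132), by DESeq2 (0.0785) and with all libraries thinned to the smallest (0.294), over a range of 0.0203 to 0.294. SYT4 missed it without β-alanine library 3 (0.0925) or control library 2 (0.0549) and when thinned (0.0964), over a range of 0.00139 to 0.0964. SYT7 missed it without control library 2 (0.0738) and without either of β-alanine libraries 2 (0.0749) and 3 (0.0916), over a range of 9.53e-06 to 0.0916. SYT14 missed it without controls 1 (0.0628) or 2 (0.135), without β-alanine libraries 2 (0.0667) or 3 (0.0994) and when thinned (0.0502), over a range of 0.000372 to 0.135. DOC2B missed it without β-alanine library 3 (0.051) or control library 2 (0.0632), over a range of 0.000446 to 0.0632. The directions of these 5 were the same in all 16 alternatives, and SYT11 passed in each of them.

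Among the genes of this set that did not pass was DOC2A, the neuronal relative of DOC2B. It was at 16.8, 14.1 and 14.7 CPM with β-alanine and 17.4, 18.0 and 17.0 CPM in the controls, a log2 fold change of -0.22 ± 0.08 (adjusted p = 0.0558). The groups did not overlap, and DOC2A passed with limma-voom (adjusted p = 0.0403), with a stricter filter (0.0466) and without β-alanine library 1 (0.00546), over a range of 0.00546 to 0.244. SYT17 was at 5.15, 3.94 and 4.67 CPM against 5.19, 5.64 and 6.22 CPM (log2 fold change -0.33 ± 0.14, adjusted p = 0.0772), and SYT13, which lacks calcium-binding residues, at 21.6, 17.1 and 18.6 CPM against 22.8, 20.7 and 18.4 CPM (-0.13 ± 0.09, adjusted p = 0.314). Without β-alanine library 1 both passed, SYT17 at 0.0256 (range 0.0256 to 0.426) and SYT13 at 0.0412 (range 0.0412 to 0.762). SYT5, a dense-core vesicle sensor, was at 15.4, 16.4 and 15.6 CPM against 15.5, 16.1 and 15.7 CPM, with an interval of -0.16 to 0.17. SYT6 (2.91 CPM in the controls) and SYT12 (1.36 CPM) had overlapping groups, with log2 fold changes of 0.15 ± 0.20 and -0.63 ± 0.27. DOC2A shares 4.44% of its exon bases with INO80E on the other strand, SYT17 2.22% with AC099518.3 and SYT13 2.49% with AC103681.1.

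In the docking, priming and clamping set, CPLX2 rose and UNC13B fell of 6 tested (33.3%, against 27.9% of all genes). CPLX2 was at 7.52, 9.67 and 9.35 CPM with β-alanine and 3.08, 4.82 and 4.64 CPM in the controls. Every β-alanine library was above every control, although both groups spread widely at this level, and the log2 fold change was 1.09 ± 0.15 (adjusted p = 1.41e-05, range over the 16 alternatives 5.4e-15 to 0.000338). Its relative CPLX1 was at 7.03, 7.33 and 6.53 CPM against 7.41, 6.87 and 7.55 CPM, overlapping, with an interval of -0.30 to 0.17. UNC13B (Munc13-2), one of the priming factors, was at 27.0, 24.1 and 22.4 CPM against 30.0, 30.6 and 28.5 CPM. It fell by 0.29 ± 0.07 (adjusted p = 0.00405) with no overlap. UNC13A (Munc13-1), the main priming factor of excitatory synapses, was at 126, 119 and 123 CPM against 113, 122 and 132 CPM; the β-alanine libraries lay inside the range of the controls (interval -0.11 to 0.10, adjusted p = 0.972). STXBP2 (Munc18-2), which binds syntaxins in secretory and immune cells, was at 29.9, 30.1 and 29.7 CPM against 29.5, 28.9 and 28.0 CPM (interval -0.08 to 0.18). The groups did not overlap, but STXBP2 shares 16.4% of its exon bases with AC008763.2. STXBP5 (tomosyn), an inhibitor of SNARE assembly, was at 16.6, 18.3 and 19.6 CPM against 16.7, 15.1 and 17.6 CPM (0.16 ± 0.09, adjusted p = 0.171). It passed without β-alanine library 1 (adjusted p = 0.0407, range 0.0407 to 0.551), and 1.81% of its exon bases lie over STXBP5-AS1.

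PPFIA3, which encodes the scaffold liprin-α3, was the active zone gene that passed, of 6 tested (16.7%, against 27.9% of all genes). It was at 53.5, 51.4 and 54.2 CPM with β-alanine and 43.6, 46.7 and 44.5 CPM in the controls, with no overlap, and rose by 0.24 ± 0.05 (adjusted p = 0.00185). RIMS3, a short RIM protein, was at 59.2, 54.9 and 58.5 CPM against 53.9, 53.3 and 54.2 CPM; its groups did not overlap either, yet the value of 0.09 ± 0.05 did not pass (adjusted p = 0.175). BSN (Bassoon) and PCLO (Piccolo) encode the largest scaffold proteins of the set. BSN was at 18.0, 17.1 and 20.0 CPM against 17.5, 19.3 and 16.1 CPM (interval -0.12 to 0.24), and PCLO at 29.7, 29.1 and 30.7 CPM against 26.1, 27.7 and 30.9 CPM (interval -0.06 to 0.23). RIMS2, a RIM that links vesicles to calcium channels, was at 6.34, 8.97 and 8.39 CPM against 9.41, 7.41 and 8.16 CPM (interval -0.29 to 0.22). ERC2 (ELKS2) averaged 3.31 ± 0.401 CPM against 3.27 ± 0.276 CPM (SD, n = 3 per group). The groups overlapped for BSN, PCLO, RIMS2 and ERC2. RIMS2 shares 1.62% of its exon bases with AC090686.1 and ERC2 3.5% with AC025572.1.

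All 4 vesicle retrieval genes passed, in opposite directions, where 27.9% of all genes tested passed. DNM3, a dynamin found in brain and testis, was at 17.6, 16.7 and 17.2 CPM with β-alanine and 13.2, 13.0 and 11.9 CPM in the controls, and rose by 0.43 ± 0.08 (adjusted p = 0.000527). DNM1, the neuronal dynamin that cuts endocytic vesicles from the membrane, was at 51.2, 42.1 and 47.4 CPM against 53.6, 58.3 and 59.4 CPM and fell by 0.29 ± 0.06 (adjusted p = 0.00169). Neither overlapped. SYNJ1, the phosphoinositide phosphatase synaptojanin-1 that helps shed clathrin, was at 25.5, 27.2 and 30.0 CPM against 25.1, 23.4 and 23.4 CPM and rose by 0.22 ± 0.07 (adjusted p = 0.0273). AMPH was at 63.5, 51.6 and 50.5 CPM against 71.7, 70.4 and 73.4 CPM, and fell by 0.40 ± 0.07 (adjusted p = 0.000427); β-alanine library 1 lay between its group and the controls. SYNJ1 missed the threshold without controls 2 (adjusted p = 0.121) or 3 (0.103), without β-alanine libraries 2 (0.0618) or 3 (0.232), by DESeq2 (0.0609) and when thinned (0.115), over a range of 0.00244 to 0.232. DNM1 has many annotated pseudogenes that could share its reads, and 0.427% of its exon bases lie over CIZ1.

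The synucleins and the vesicular transporters gave no call. SNCB (β-synuclein) was at 10.2, 7.91 and 7.52 CPM with β-alanine and 9.84, 10.8 and 9.84 CPM in the controls, with β-alanine library 1 inside the range of the controls (log2 fold change -0.29 ± 0.11, adjusted p = 0.0602). It passed with limma-voom (adjusted p = 0.0398) and without β-alanine library 1 (0.00202), over a range of 0.00202 to 0.29. SNCG (γ-synuclein) averaged 1.42 ± 0.511 CPM against 1.34 ± 0.388 CPM. SLC17A7 (VGLUT1), which loads glutamate, was at 10.2, 12.7 and 11.7 CPM against 11.2, 10.6 and 10.7 CPM (interval -0.09 to 0.31). SLC18A3, the acetylcholine transporter, averaged 4.30 ± 0.323 CPM against 3.55 ± 0.440 CPM, a log2 fold change of 0.26 ± 0.15 that did not pass (adjusted p = 0.216) although the groups did not overlap. SLC32A1, which loads GABA and glycine, and SLC18A2, which loads monoamines, averaged 1.32 and 0.479 CPM in the controls with overlapping groups. SLC18A2 shares 52% of its exon bases with PDZD8 on the opposite strand, so its reads cannot be assigned to it alone.

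The other 10 members with a row had too few reads to test, with at most 11 counts in any library. They include SYT1, the best known calcium sensor of synchronous release, with 10 counts over the β-alanine libraries and 6 over the controls, and its vesicle partners SV2B (7 and 8) and SV2C (3 and 4). RIMS1 had 7 and 4 counts, PPFIA2 17 and 7, DNAJC5B, a cysteine-string protein, 11 and 8, CADPS2 19 and 10, and SLC18A1 1 and 1. CADPS, which primes dense-core vesicles, had 1 count against 10, a ratio of 0.081 once library sizes are taken into account, with an exact 95% counting interval of 0.00187 to 0.57. Without the low-count filter CADPS had an adjusted p of 0.0558. SLC17A6, a glutamate transporter, had 0 counts in 135168521, which allows up to 0.0222 CPM. Intervals and floors cover counting error only.

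Levels can be set against each other per kb of annotated exon. In the controls SYT11 was highest at 47.6 ± 0.437 CPM per kb (SD, n = 3), followed by SV2A at 29.4 ± 0.248, SYPL1 at 24.6 ± 0.363, SYNGR2 at 15.6 ± 0.69, AMPH at 12.7 ± 0.267, SYP at 11.7 ± 0.812 and UNC13A at 11.0 ± 0.871. SYP and UNC13A overlapped, as did 25 of the 42 pairs of neighbours in the order of all 43. The lowest was SLC18A2 at 0.116 ± 0.035 CPM per kb, 410-fold under SYT11. With β-alanine, SYN1 moved from rank 23 to rank 13, at 4.61 against 2.51 CPM per kb, CPLX2 from 38 to 33, at 1.25 against 0.589, and AMPH from 5 to 7, at 9.79 against 12.7. The first 4 kept their ranks. Across the 43 members the fold change had a Spearman correlation of 0.24 with the level and of -0.16 with the length of the gene on the genome; these are descriptions over genes that share the same 6 libraries.

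**Figure D3:**
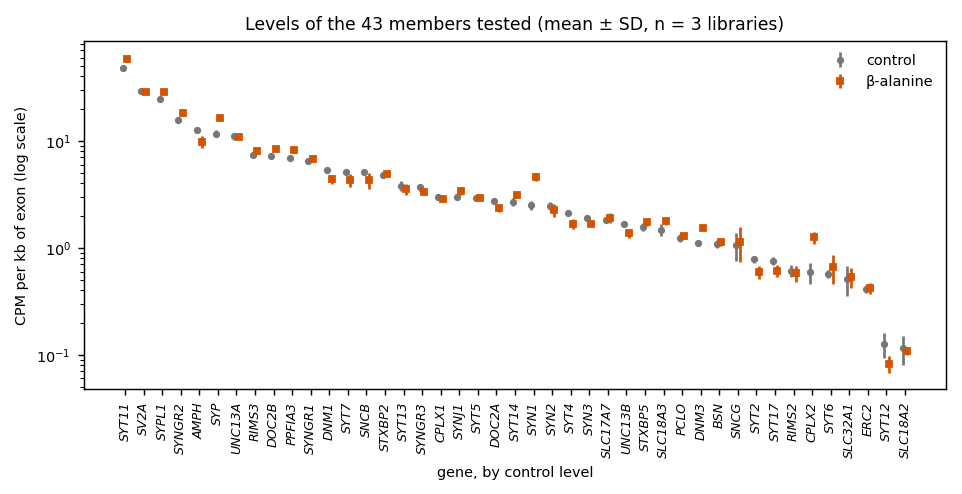
CPM per kb of exon on a log scale for the 43 members tested, as mean ± SD of 3 libraries, ordered by control level, with controls in grey and β-alanine in orange. Levels run from 47.6 (SYT11) to 0.116 (SLC18A2) in the controls, and SYN1 and CPLX2 show the widest gaps between the groups.

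The size of the shift differed between β-alanine libraries. For each called member, the distance of library 1 from the control mean was set against the mean distance of libraries 2 and 3. Library 1 had the smaller shift in 15 of the 17, with a median of 72.1% of the shift of the other two. Over all genes, too, library 1 lay nearer the controls on the first principal component (-9.13 against -23.52 and -23.61). The share of all called genes with a smaller shift in library 1 was not taken, so this is not a trait shown for the members alone. The median was 78.7% over the 11 that rose (37.2% to 113%) and 41.4% over the 6 that fell (10.9% to 96.8%). Without β-alanine library 1, 12 members rose and 11 fell, and over all genes tested 3204 rose and 3294 fell. Without control library 2, 8 members rose and 3 fell, and over all genes 1570 rose and 1488 fell. The calls of 11 of the 17, namely SYN1, SYP, SYNGR2, SYPL1, SYT11, CPLX2, UNC13B, PPFIA3, DNM1, DNM3 and AMPH, held in all 16 alternatives. The depth of library 1 was the lowest of the 6; its part in these results was not tested beyond the fit with all libraries thinned to that depth.

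**Figure D4:**
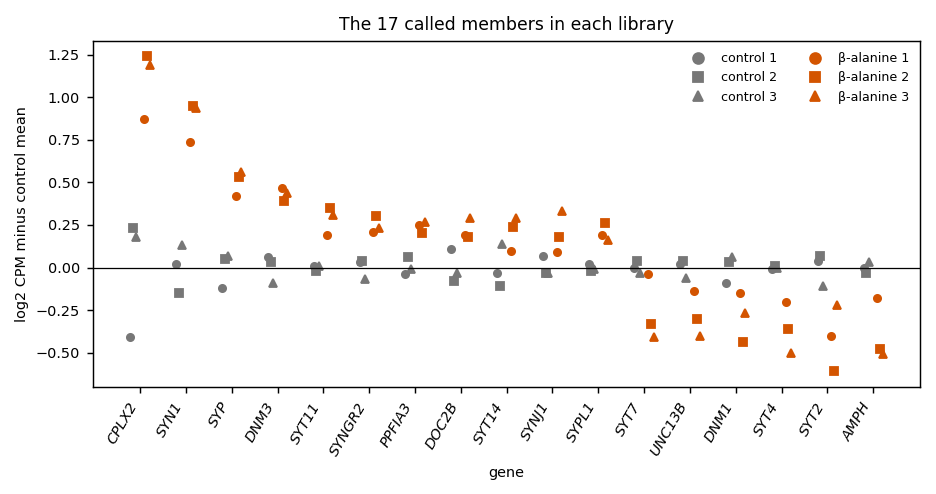
Each point is 1 library's log2 CPM minus the mean of the controls for the 17 called members, with controls in grey, β-alanine in orange and the library number by symbol. β-alanine library 1 (circles) lies nearer to the controls than the mean of libraries 2 and 3 in 15 of the 17, though not always nearer than each of them, and in SYT14 the groups overlap.

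Some relatives within a family moved apart. Within each library the log2 ratio of counts of 2 related members does not depend on the scaling between libraries. For CPLX2 to CPLX1 this ratio was 0.10, 0.40 and 0.52 with β-alanine and -1.27, -0.51 and -0.70 in the controls, a difference of 1.16. For SYN1 to SYN2 it was 0.12, 0.51 and 0.75 against -0.51, -0.83 and -0.31, a difference of 1.01, and for SYN1 to SYN3 0.82, 1.02 and 1.00 against -0.12, -0.23 and 0.02, a difference of 1.06. The count of CPLX2 and of SYN1 was thus above that of these relatives in each β-alanine library, and below it in each control except for SYN1 and SYN3 in control library 3. These counts are not scaled for exon length, so this order is not one of levels. Per kb of exon, CPLX2 stayed below CPLX1 with β-alanine, at 1.25 against 2.88 CPM per kb. In the controls SYN1 was at 2.51 CPM per kb, SYN2 at 2.47 and SYN3 at 1.9, with overlap between SYN1 and SYN2. DNM3 to DNM1 was at -1.54, -1.34 and -1.46 against -2.02, -2.17 and -2.32, a difference of 0.72. In all, 13 pairs were compared, with the order in each pair set so that the difference is positive, and 8 did not overlap; DOC2B to DOC2A (0.42), SYNGR2 to SYNGR3 (0.39), UNC13A to UNC13B (0.28) and SYNGR2 to SYNGR1 (0.18) were the other 4. The exact two-sided permutation test of 3 against 3 libraries cannot go below 0.1, which is the p of each of these 8 (0.163 after Benjamini-Hochberg adjustment over the 13), so none passed, and the pairs were set after the members' values were known.

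**Figure D5:**
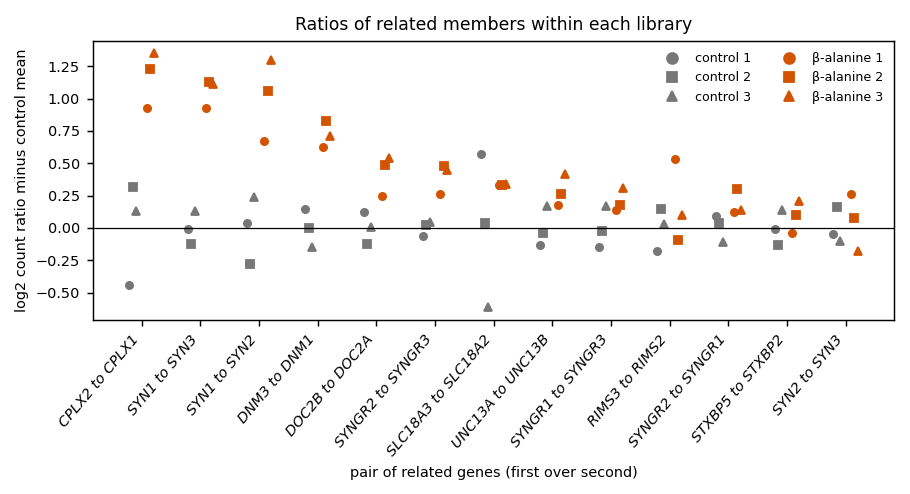
Points are the log2 count ratio of 2 related members in 1 library minus the mean of the controls, for the 13 pairs, with controls in grey and β-alanine in orange. The orange points lie above all grey ones in 8 pairs, with the largest gaps for CPLX2 to CPLX1, SYN1 to SYN3 and SYN1 to SYN2.

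Relatives outside the group were read from lists of related genes. Of 25 tested paralogs, 3 rose and 4 fell (28%, against 27.9% of all genes, median log2 fold change -0.00). STXBP5L (tomosyn-2), a SNARE inhibitor, was at 3.13, 4.81 and 5.03 CPM with β-alanine and 1.78, 1.55 and 1.68 CPM in the controls, all above the controls, and rose by 1.43 ± 0.19 (adjusted p = 1.12e-05). SYPL2, a synaptophysin relative of muscle, fell by 0.33 ± 0.07 (adjusted p = 0.0011), ESYT3, an extended synaptotagmin, by 0.37 ± 0.09 (adjusted p = 0.00431), and STXBP4, which binds syntaxin 4, rose by 0.20 ± 0.05 (adjusted p = 0.00527). Without β-alanine library 3, 1 of the 3 rises was left and STXBP4 missed the threshold (adjusted p = 0.0697).

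Of 31 genes of clathrin-mediated endocytosis, all tested, 5 rose and 4 fell (29%, against 27.9% of all genes, median 0.02). AP2B1, a subunit of the clathrin adaptor AP-2, rose by 0.17 ± 0.04 (adjusted p = 0.00332) and the clathrin heavy chain CLTC by 0.15 ± 0.04 (0.0061), while the scaffold and adaptor genes PACSIN3 and ITSN1 fell by 0.27 ± 0.05 (0.000398) and 0.21 ± 0.05 (0.00226). The rises counted 1 and the falls 2 without the second library of either group. The rises counted 2 without control 1 and 3 without the third library of either group. Most genes of transmitter synthesis were too low to test (9 of 14). Of the 5 tested, 1 rose and 2 fell (60%, against 27.9% of all genes). SLC6A17, a vesicular amino acid transporter, fell by 0.46 ± 0.07 (adjusted p = 2.87e-05), from 41.8, 37.8 and 38.0 CPM in the controls to 31.3, 26.7 and 28.0 CPM. TPH1, which starts serotonin synthesis, fell by 1.10 ± 0.32 at about 1 CPM (adjusted p = 0.0139), and missed the threshold when thinned and without any 1 of control 3 and β-alanine libraries 2 and 3. Exon overlap with other genes makes the counts of SLC6A17 (7.36% with AL355990.1), TPH1 (5.07% with AC055860.1) and CLTC (2.06% with PTRH2) uncertain to that extent.

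REST, the repressor of neuronal genes that binds repressor element 1, was at 90.1, 97.9 and 92.9 CPM with β-alanine and 84.0, 87.3 and 93.7 CPM in the controls. The groups overlapped and REST did not pass (log2 fold change 0.09 ± 0.05, adjusted p = 0.198). Of 9 tested genes for REST and its cofactors, 4 fell and none rose (44.4%, against 27.9% of all genes called, 13.8% lower, median -0.09). RCOR2, a corepressor, was at 15.9, 14.0 and 12.7 CPM against 21.4, 23.3 and 19.3 CPM and fell by 0.61 ± 0.09 (adjusted p = 3.37e-05). EHMT2, a histone H3 methyltransferase, fell by 0.21 ± 0.05 (0.00178), the demethylase KDM1A by 0.13 ± 0.04 (0.0144) and RCOR3 by 0.13 ± 0.05 (0.0303). The falls counted 2 without any 1 of controls 1 and 2 and β-alanine libraries 2 and 3, and EHMT2 shares 8.12% of its exon bases with EHMT2-AS1.

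Markers of the line and of other cell types were read in the same libraries. Of 7 neuroendocrine markers tested, 4 rose and 1 fell (71.4%, against 27.9% of all genes). The granin genes SCG3 and CHGA rose by 0.61 ± 0.09 (adjusted p = 2.9e-05) and 0.56 ± 0.08 (2.76e-05). UCHL1, a ubiquitin hydrolase, rose by 0.44 ± 0.07 (0.000176) and CHGB by 0.32 ± 0.06 (0.000174). NCAM1, an adhesion molecule, fell, but missed the threshold by DESeq2 (adjusted p = 0.0653) and without any 1 of control 1 and β-alanine libraries 2 and 3. The summed level of the 12 was 253 to 281 CPM with β-alanine and 230 to 235 CPM in the controls. Of 8 neuron markers tested, 2 rose and none fell (25%, against 27.9% of all genes), 4 values were above 0 and 4 below, and the median log2 fold change was 0.02. RBFOX3, MAP2, ELAVL4 and NEUROD1 were at -0.13, -0.13, -0.19 and -0.24, not past the threshold, and the groups did not overlap for RBFOX3. ELAVL3, an RNA-binding protein of neurons, rose by 0.34 ± 0.07 (adjusted p = 0.000471), and NEFM, a neurofilament gene, rose by 0.56 ± 0.21 (0.0488). That call for NEFM held in 6 of 16 alternatives: it was lost with no low-count filter (0.0558), by DESeq2 (0.154), limma-voom (0.053), no robust shrinkage (0.0551), the replicate block (0.0516) and thinning (0.138), and without any 1 of controls 1 (0.199) and 2 (0.152) and β-alanine libraries 2 (0.104) and 3 (0.25); the list summed to 83.4 to 87.0 CPM against 78.8 to 81.9 CPM. NEFM shares 38.9% of its exon bases with AF106564.1 on the opposite strand, UCHL1 5.92% with UCHL1-AS1 and ELAVL3 5.38% with AC008481.3.

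Of 7 fibroblast markers tested, 4 fell and 1 rose (71.4%, against 27.9% of all genes). The sum of the fibroblast markers was 946 to 1054 CPM with β-alanine against 1196 to 1239 CPM in the controls. COL3A1, a fibrillar collagen gene, fell by 0.34 ± 0.04 (adjusted p = 1.06e-05) and made up most of that sum, THY1 fell by 0.46 ± 0.06 (2.02e-05), DCN by 0.27 ± 0.04 (6.33e-05) and COL1A1 by 0.32 ± 0.10 (0.0162). COL1A1 missed the threshold without control 2, control 3 or β-alanine library 2. PDGFRB was the 1 that rose, and its call held in 7 of 16 alternatives; it was lost without β-alanine library 3 or any single control, and by DESeq2 and limma-voom among others. THY1 shares 10.7% of its exon bases with AP003396.5 on the opposite strand. All 5 blood cell and 4 endothelial markers with a row were under 1 CPM in every library, with sums of 0.474 to 0.869 CPM against 0.973 to 1.22 CPM and 0.182 to 0.240 CPM against 0.216 to 0.255 CPM. PTPRC, PECAM1 and VWF had no read in the controls. Of 4 lung epithelial markers with a row, 3 were under 1 CPM and AGER did not pass, with sums of 3.87 to 4.46 CPM against 2.91 to 4.03 CPM. The neuroendocrine and neuron sums were thus higher in each β-alanine library than in any control. The higher neuron sum came from ELAVL3, which averaged 39.2 CPM with β-alanine and 31.1 CPM in the controls. RBFOX3, the other neuron marker above 5 CPM, was lower with β-alanine, at 31.8 against 34.7 CPM on average. Of the 8 neuron markers tested, 4 had a fold change above 0 on the log2 scale and 4 below it, so the list did not rise as a whole. The fibroblast and blood cell sums were lower in each β-alanine library than in any control, the latter from markers under 1 CPM. The endothelial and lung epithelial sums overlapped between the groups. The part of any of these in the changes of the synaptic members was not tested.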

How the data were processed

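Per the submitters' processing notes, reads were trimmed with Trimmomatic 0.39, aligned with STAR 2.7.3a to GRCh38 and counted with featureCounts 2.0.1; the gene annotation and the strand setting of the counting are not stated in those notes. The authors deposited 1 table of whole-number counts per gene symbol for 6 libraries, which were grouped by their titles. Genes were kept with filterByExpr (17331), scaled by TMM and tested with edgeR 4.0.16 (glmQLFit with robust shrinkage, glmQLFTest, two-sided, R 4.3.3), with Benjamini-Hochberg adjustment over all genes tested and a threshold of 0.05. The common dispersion of the counts corresponds to a biological coefficient of variation of 4.35%. In counts simulated for this comparison over 17116 genes, 50 genes each were changed 1.25-fold, 1.5-fold, 2-fold and 3-fold, and no others. Of these, 44%, 74%, 84% and 96% were called, with 13 false among 162 calls. In the data 4830 genes were called, far more than were changed in the simulation, so these rates need not hold for the data. CPM use the scaled library sizes, and confidence intervals are at 95%. Per-library values are given for called members and for those of at least 5 CPM on average in either group; at most 4 called genes with the smallest p are named per other list. The members and lists were chosen with earlier results of these data known. Exon lengths and overlaps come from GENCODE release 29 and promoters from RefSeq GRCh38.p14. No pair of libraries agreed within counting noise: the chi-square per degree of freedom was 1.88 to 4.47 within groups and 4.31 to 14.3 between them. Alternatives were RLE and upper-quartile factors, library totals, other filters, DESeq2 1.42.0, limma-voom (limma 3.58.1), no robust shrinkage, a replicate block, thinning, and leaving out each library; the one on ratios of related genes was chosen after seeing the data.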

Additional observations from a re-analysis of the deposited data

How the results depend on the processing

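The members that rose numbered 9 to 11 and those that fell 4 to 8 over the 10 alternatives that keep all libraries; leaving out 1 library at a time gave 8 to 12 and 3 to 11. Over all genes tested, leaving out 1 library gave 1501 to 3204 that rose and 1473 to 3294 that fell, and the other alternatives 1853 to 2745 and 1881 to 2608. The falls among the members counted 11 without β-alanine library 1 and 3 without control library 2; over all genes the lowest counts were without β-alanine library 2 (1501 and 1473) and control library 2 (1570 and 1488), and the cause was not tested. The deviations of same-numbered libraries from their group means had correlations of 0.0496, 0.00365 and 0.0716. Those of differently numbered libraries ran from -0.0718 to 0.00796. Values this small do not settle whether the numbers pair the libraries. A fit with the replicate number as a replicate block gave 11 members that rose and 6 that fell. Over all genes tested that fit gave 2564 and 2608. No called member changed direction in any alternative. The direction changed only for members that did not pass. When 1 library was left out, the log2 fold change ran from -0.02 to 0.02 for SYT5, -0.01 to 0.38 for SYT6, -0.06 to 0.05 for UNC13A, -0.13 to 0.06 for RIMS2, -0.02 to 0.14 for BSN, -0.09 to 0.05 for ERC2, -0.25 to 0.41 for SNCG, -0.12 to 0.36 for SLC32A1 and -0.33 to 0.07 for SLC18A2. It was -0.00 for SYT5 with at least 1 CPM in 3 libraries, 0.01 for UNC13A and 0.00 for ERC2 with library totals, 0.00 for UNC13A with no filter, and 0.02 and 0.03 for them when thinned. The log2 ratio of SYN2 to SYN3, of uncertain sign, ran from -0.05 to 0.17 when 1 library was left out. Depth limits the 10 members that could not be tested, all with at most 11 counts in a library.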
